A study of Homo sapiens with 6 samples.

Results

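The unfolded protein response genes described here are 10 named genes, found by their symbol in a table of 20348 genes, each of which matched a single row. They were kept in 2 groups. The ATF6/XBP1 arm held *HSPA5*, *XBP1*, *HERPUD1*, *DNAJB9*, *SDF2L1* and *PDIA4* (6 genes), and the ATF4/CHOP arm held *ATF4*, *DDIT3*, *ATF3* and *TRIB3* (4 genes). RNA was sequenced from MV4-11, an established human acute myeloid leukemia (AML) cell line, in 3 samples labelled untreated (Control) and 3 samples treated for 48 h with 1 μM WNK463, a compound that blocks WNK kinases. The question was which transcripts change when the kinase inhibitor slows these cells. All samples were from this single line at a single dose and time, whether the untreated cells received solvent was not given in the sources used here, and nothing says that the samples of a group were separate cultures, so the p-values measure only the spread between these samples.

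The endoplasmic reticulum (ER) folds secreted and membrane proteins. When unfolded proteins accumulate there, the sensors IRE1, ATF6 and PERK respond. IRE1 removes a short segment from *XBP1* mRNA, which then encodes an active transcription factor, and ATF6 is released from the membrane as another, and both induce ER chaperones and the machinery that removes misfolded proteins. PERK phosphorylates the translation factor eIF2, which slows protein synthesis but favours translation of *ATF4*, and ATF4 induces the transcription factor CHOP (*DDIT3*), *ATF3* and *TRIB3*. The same phosphorylation is made by other kinases upon amino acid shortage, haem shortage or viral RNA, so the ATF4 branch is not specific to the ER.

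The first sequence shown is the *XBP1* segment, because it separates the forms that the counts could not. In GENCODE 29 on GRCh38 the segment of 26 bases lies within coding exon 4 of the transcript XBP1-201, at chr22:28796122-28796147 on the minus strand, and it is absent from XBP1-202. It was present in 4 of 7 annotated *XBP1* transcripts. Capitals mark the segment, with 20 bases on each side. The 6 bases before it are repeated at its end, so its boundary could lie up to 6 bases further upstream and give the same product.
XBP1 segment: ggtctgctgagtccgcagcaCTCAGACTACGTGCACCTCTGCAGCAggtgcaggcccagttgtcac
The deposited counts are totals per gene, so spliced and unspliced *XBP1* were not told apart.

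Promoter sequences are shown because they mark which members carry a published response element next to their start. RefSeq windows (GRCh38.p14, 250 bases before to 50 after a start) existed for all 10 genes. They were searched on both strands for the ER stress response element ERSE (CCAAT and CCACG with 9 bases of any kind between them), its variant ERSE-II (ATTGG and CCACG with 1 base between them), the unfolded protein response element UPRE (TGACGTGG) and the ATF4 type element CARE (TGATGNAA). ERSE was in 0.0769% of 35116 windows, ERSE-II in 0.0541%, UPRE in 0.729% and CARE in 3.62%. Of the members, *HSPA5* and *XBP1* held ERSE, *HERPUD1* and *SDF2L1* held ERSE-II, *HERPUD1* and *ATF3* held CARE, and none held UPRE. The CARE of *ATF3*, which begins 191 bases before a start, is not printed. The motifs are in capitals, each line reads in the direction of the gene, and the stretches stop before the first annotated exon of the gene.
HSPA5, ERSE, chr9:125241376-125241449, minus strand: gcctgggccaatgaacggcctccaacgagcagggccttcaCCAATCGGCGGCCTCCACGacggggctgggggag
XBP1, ERSE, chr22:28800598-28800661, minus strand: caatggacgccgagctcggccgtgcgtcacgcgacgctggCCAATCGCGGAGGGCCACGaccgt
HERPUD1, CARE, chr16:56931926-56931988, plus strand: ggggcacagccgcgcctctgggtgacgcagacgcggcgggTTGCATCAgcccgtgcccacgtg
HERPUD1, ERSE-II, chr16:56931985-56932047, plus strand: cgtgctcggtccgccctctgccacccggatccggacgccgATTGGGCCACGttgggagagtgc
SDF2L1, ERSE-II, chr22:21642074-21642139, plus strand: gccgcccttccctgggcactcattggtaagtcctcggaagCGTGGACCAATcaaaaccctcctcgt
The *HSPA5* element begins 66 bases before the start and the *XBP1* element 52 bases before it. In *SDF2L1* and for the CARE of *HERPUD1* the motif reads on the opposite strand. The search says only which letters are in these windows.

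The members moved in both directions after WNK463. All 4 genes of the ATF4/CHOP arm were higher, by 12.3% for *ATF4* and by 52.2% to 68.1% for the other three. The ATF6/XBP1 arm went both ways, with *DNAJB9* 2.01-fold and *HERPUD1* 1.36-fold higher, while *SDF2L1*, *PDIA4*, *XBP1* and *HSPA5* were lower. All 10 genes passed an adjusted p of 0.05 in edgeR's quasi-likelihood test over 11973 genes, a threshold that 70.8% of all tested genes passed, 35.5% as higher and 35.3% as lower. With a log2 fold change of at least 1 in size also required, 15.2% of all genes were called (9.62% as higher and 5.55% as lower), and of the members only *DNAJB9* and *SDF2L1* were. Both lay near this cutoff. *DNAJB9* had 1.01, and 0.90 without Control replicate 2, while *SDF2L1* had -1.18, and -0.95 with limma on log2(TPM + 1). Since most genes of these cells passed, a pass alone sets the members little apart, and their sizes and directions are described below.

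**Figure D1:**
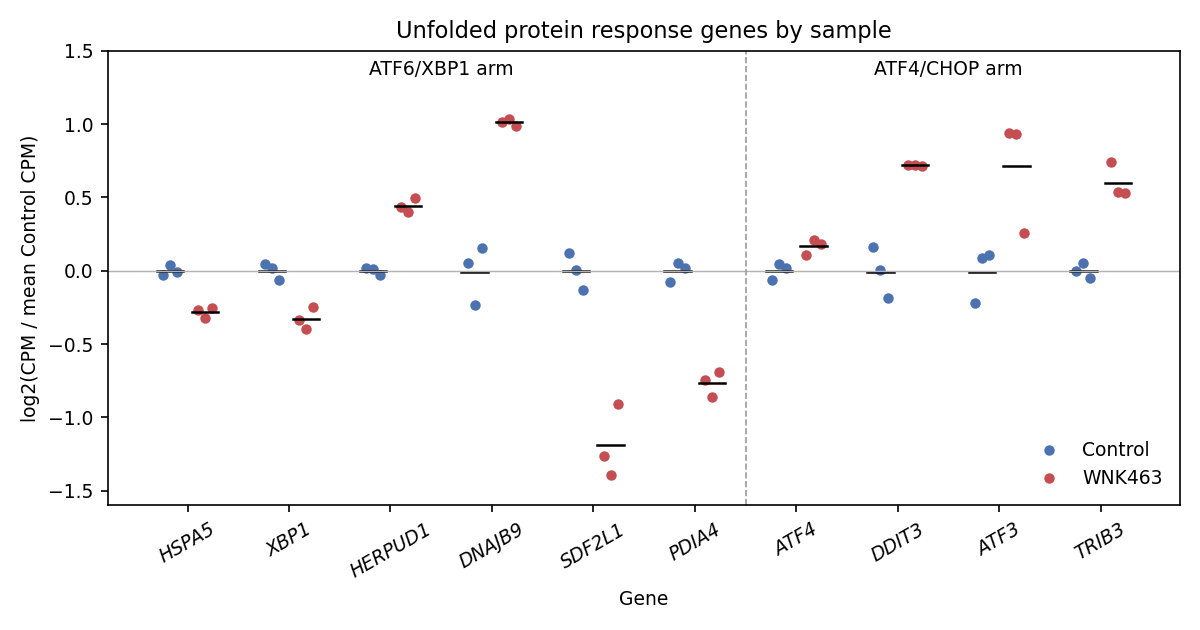
CPM (counts scaled to the size of the library) of each gene in each sample, as log2 of the ratio to the mean of the 3 Control samples; points are samples and bars are means of the plotted values. In all 10 genes the 3 WNK463 points lie on one side of the 3 Control points, below them for *HSPA5*, *XBP1*, *SDF2L1* and *PDIA4*, and *ATF3* has a single WNK463 sample close to Control.

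Library totals lay between 14915745 and 17411780 counts. The TMM factors that scale them were 0.944 to 0.952 for Control libraries, against 1.05 to 1.06 for WNK463 libraries. When total counts were used instead, the median over all tested genes moved up by 0.15 on the log2 scale, and 63.9% of the genes that passed were then higher, compared with 50.2% with TMM. None of the 10 members changed direction or lost its call under this scaling. The shift is close to the size of the change of *ATF4* (0.17 with TMM), and *HSPA5* went from -0.28 with TMM to -0.13 with total counts. In CPM the groups did not overlap for any of the 10 genes, which was so for 73.6% of all tested genes, and the exact two-sided permutation p of each was 0.10, the smallest that 3 samples against 3 allow. The cells carried the myeloid markers, with 9 of 9 at 1 TPM (a unit scaled for transcript length and library size) or more in at least 1 sample, and the T cell, B and plasma cell and erythroid markers all stayed below this level. The summed TPM of the myeloid list was 2537 to 2729 in Control and 1546 to 1593 with WNK463, and *LYZ*, for lysozyme, went from 1697 to 418 TPM. Of the other myeloid markers *MPO* went from a mean of 4.34 to 0.922 TPM and *CD33* from 123 to 111, *FLT3* had 179.6 and 178.1 TPM, and *PTPRC*, *HOXA9*, *MEIS1*, *CEBPA* and *SPI1* had higher means with WNK463, such as 56.8 and 124 TPM for *PTPRC* and 297 and 339 TPM for *SPI1*. Of the megakaryocyte markers *ITGA2B* went from 8.60 to 26.3 TPM and *PF4* was at 0. The part of these markers in the results was not tested. In these bulk samples, fewer cells of a kind and less RNA per cell cannot be told apart.

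*HSPA5* (ENSG00000044574) encodes BiP, the major ER chaperone, which keeps the sensors inactive while unfolded proteins do not occupy it. It lies on chromosome 9 of GRCh38 from 125234853 to 125241330. It had 836.0, 879.7 and 849.3 CPM in the Control samples and 709.5, 684.2 and 716.2 CPM in the WNK463 samples. The highest WNK463 sample was thus well below the lowest Control sample, although the change was the smallest of the members that fell. edgeR put the change at -0.28 on the log2 scale (standard error, SE, 0.04, edgeR adjusted p = 1.5e-05), and -0.13 with scaling by total counts (adjusted p = 0.0090).

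*XBP1* (ENSG00000100219) encodes the transcription factor that IRE1 activates through the segment printed above. Its gene spans chromosome 22 from 28794555 to 28800597. Its CPM was 333, 328 and 309 in Control and 255.6, 245.0 and 272.5 with WNK463, so that no samples overlapped. On the log2 scale its change was -0.33 (SE 0.05, edgeR adjusted p = 1.5e-05), and -0.17 with total counts (adjusted p = 0.0039). In TPM the gap closed, since Control replicate 3 and WNK463 replicate 3 both had 311.8 TPM after rounding, and with limma on log2(TPM + 1) without a filter the adjusted p was 0.054. In relation to *HSPA5*, the TPM of *XBP1* was 60.8% ± 3.16 in Control, against 60.3% ± 2.55 with WNK463 (SD, n = 3 each, exact two-sided permutation p = 0.70). The ratio of means was 0.991, a comparison within each library that does not depend on the scaling.

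*PDIA4* (ENSG00000155660), a protein disulfide isomerase that forms and rearranges disulfide bonds, lies on chromosome 7 from 149003062 to 149028641. It had 275, 301 and 294 CPM in Control and 172.5, 159.6 and 179.4 CPM with WNK463. Every treated sample was far below every Control sample, with a log2 fold change of -0.76 (SE 0.05, edgeR adjusted p = 6.6e-10). Of the 10 members it had the smallest p, at rank 754 of the genes tested. *SDF2L1* (ENSG00000128228), an ER lumen protein that keeps BiP clients from aggregating together with J-domain partners, lies on chromosome 22 from 21642261 to 21644298. Its counts were low, with 250, 205 and 210 reads in Control and 97, 92 and 117 with WNK463. In CPM these were 15.2, 14.1 and 12.8 against 5.85, 5.35 and 7.47, and the log2 fold change of -1.18 (SE 0.14, edgeR adjusted p = 5.3e-07) was the largest fall among the members.

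*DNAJB9* (ENSG00000128590) encodes ERdj4, a J-domain partner of BiP that promotes degradation of misfolded proteins and restrains IRE1. It lies on chromosome 7 from 108569568 to 108574850. It had 14.2, 11.7 and 15.2 CPM in Control and 27.7, 28.1 and 27.2 CPM with WNK463, and the treated samples were close to each other and far above Control. This was a log2 change of 1.01 (SE 0.10, edgeR adjusted p = 4.4e-08). It overlaps *PNPLA8* and *THAP5* on the opposite strand, which also rose, with log2 fold changes of 1.23 and 0.41 (adjusted p = 1.7e-09 and 5.7e-04 from edgeR). Whether counting used the strand was not given in the sources used here, so reads of these overlapping genes cannot be told apart.

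*HERPUD1* (ENSG00000051108) encodes an ER membrane protein that gathers the ubiquitin ligase complex for ER-associated degradation. Its gene lies on chromosome 16 from 56932048 to 56944863. It had 136.3, 135.5 and 132.0 CPM in Control and 182.0, 177.6 and 189.4 CPM with WNK463, a rise that was even across samples. Its log2 fold change came to 0.44 (SE 0.05, edgeR adjusted p = 2.4e-07). Compared with *HSPA5* in TPM, it went from 26.9% ± 0.695 to 45.1% ± 0.594 (SD, n = 3 each), and *DNAJB9* went from 1.98% ± 0.308 to 4.96% ± 0.164. *PDIA4* went the other way, from 36.2% ± 0.791 to 26.5% ± 1.203 of the *HSPA5* level, as did *SDF2L1*, from 5.91% ± 0.604 to 3.25% ± 0.544. For these 4 genes no WNK463 ratio overlapped a Control ratio (exact two-sided permutation p = 0.10 each, the smallest possible). The share of other genes with such separate ratios was not computed, and in CPM 73.6% of all tested genes did not overlap. Relative to *HSPA5* in these samples, *HERPUD1* and *DNAJB9* were higher and *PDIA4* and *SDF2L1* lower with WNK463.

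*ATF4* (ENSG00000128272) encodes the central transcription factor of the integrated stress response and is controlled mainly at translation, which RNA counts do not show. It lies on chromosome 22 from 39519695 to 39522685. It had 172, 185 and 182 CPM in Control and 193, 208 and 203 CPM with WNK463, and the groups were separate by a narrow margin. edgeR put the change at 0.17 on the log2 scale (SE 0.05, edgeR adjusted p = 0.0060), and 0.32 with total counts. In GENCODE 29, 4 pseudogenes are named after *ATF4* and 1 after *XBP1*, and reads shared with such copies could not be assessed.

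*DDIT3* (ENSG00000175197) encodes CHOP, which promotes cell death under lasting ER stress. Its gene lies on chromosome 12 from 57516588 to 57521737. It had 5.36, 4.80 and 4.21 CPM in Control and 7.91, 7.90 and 7.85 CPM with WNK463. The treated samples were nearly equal, though the counts behind them were only 131, 136 and 123 reads. On the log2 scale its change was 0.72 (SE 0.15, edgeR adjusted p = 4.5e-04). Of the genes that overlap it on the opposite strand, *MARS1* fell (log2 fold change -0.46, adjusted p = 1.5e-07 from edgeR) and *MBD6* did not pass (-0.11, adjusted p = 0.12 from edgeR). On its own strand it overlaps *AC022506.1* and *MIR616*, and reads shared with these could not be assessed.

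*TRIB3* (ENSG00000101255) encodes a pseudokinase that CHOP and ATF4 induce and that dampens them in turn. It lies on chromosome 20 from 362835 to 397559. It had 10.04, 10.42 and 9.69 CPM in Control and 16.8, 14.6 and 14.5 CPM with WNK463, with a wide gap between the groups. This was a log2 change of 0.61 (SE 0.11, edgeR adjusted p = 7.8e-05). *ATF3* (ENSG00000162772), a stress-induced transcription factor on chromosome 1 from 212565334 to 212620777, was the least certain member. It had 39, 43 and 49 reads in Control and 88, 91 and 52 reads with WNK463, or 2.37, 2.95 and 2.99 against 5.31, 5.29 and 3.32 CPM. Its log2 fold change came to 0.75 (SE 0.23, edgeR adjusted p = 0.0077). It was 0.93 without WNK463 replicate 3 and 0.64 without WNK463 replicate 1. In TPM the groups overlapped, with 4.58 TPM in WNK463 replicate 3 and 5.25 TPM in Control replicate 2, and with limma on log2(TPM + 1) without a filter the adjusted p was 0.072.

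**Figure D2:**
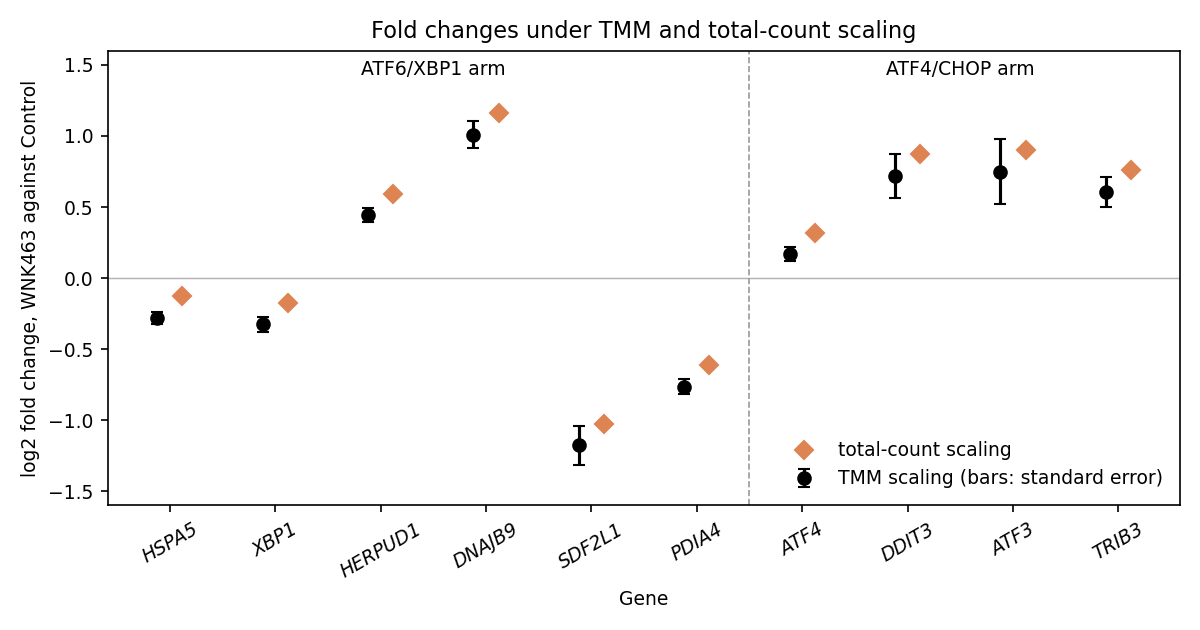
Log2 fold change of each gene, WNK463 against Control, from edgeR with TMM scaling (black, bars are standard errors) and with scaling by total counts (orange diamonds). Total-count scaling moves every gene up by about 0.15, and the direction of all 10 genes is the same under both.

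Levels between genes were compared in TPM, which accounts for length. In Control the order was *HSPA5* at 535 ± 20.6 TPM, *XBP1* at 325 ± 11.5, *ATF4* at 242 ± 11.5, *PDIA4* at 194 ± 10.8, *HERPUD1* at 144 ± 6.48 and *SDF2L1* at 31.6 ± 2.46 TPM (SD, n = 3 each). *DNAJB9*, *DDIT3* and *TRIB3* followed at 10.6, 9.74 and 9.06 TPM with overlapping ranges between neighbours, and *ATF3* was lowest at 4.30 ± 0.867 TPM. With WNK463, *ATF4* at 305 ± 10.6 TPM came level with *XBP1* at 297 ± 14.0, with overlapping ranges. *HERPUD1* at 222 ± 0.9004 TPM moved above *PDIA4* at 131 ± 7.04, and *DNAJB9* at 24.4 ± 0.559 TPM moved above *SDF2L1* at 16.0 ± 2.74, in both cases without overlap. The most and the least abundant members, *HSPA5* and *ATF3*, were the same in both groups. The TPM summed over the ATF6/XBP1 arm was 1240 ± 35.6 in Control and 1183 ± 26.8 with WNK463, and over the ATF4/CHOP arm it was 265 ± 11.8 and 347 ± 10.8 TPM (SD, n = 3 each). The largest term of these sums was *HSPA5* in the first arm and *ATF4* in the other. These TPM carry no TMM scaling, and their changes between groups differ from the TMM fold changes. *HSPA5* had a log2 change of -0.12 in limma on log2(TPM + 1), against -0.28 with TMM, and *ATF4* 0.33 against 0.17.

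**Figure D3:**
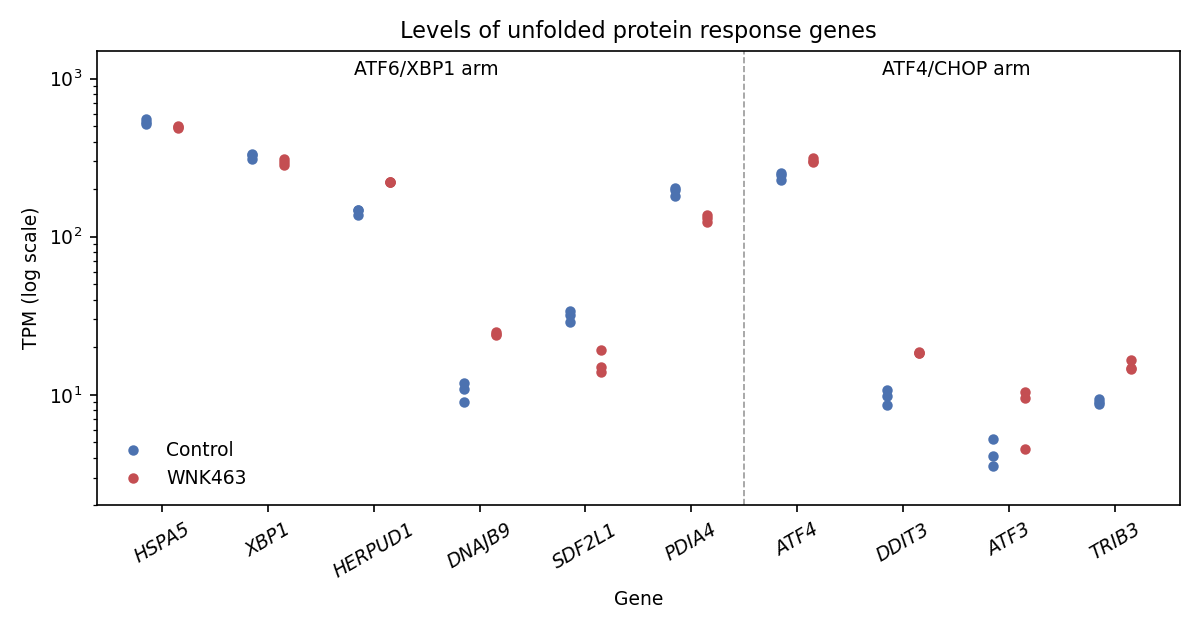
TPM of each gene on a log scale, with 3 Control samples (blue) and 3 WNK463 samples (red). *HSPA5* is highest in both groups, *HERPUD1* rises above *PDIA4* and *DNAJB9* above *SDF2L1* with WNK463, and the *ATF3* ranges overlap.

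The sensors showed small changes or none that passed. *ATF6* averaged 92.2 ± 5.95 CPM in the 3 Control samples against 108 ± 2.76 CPM after WNK463 (SD), which is a log2 change of 0.23 (adjusted p = 0.0013 from edgeR). *ATF6B*, on the same list, went the other way, from 218 to 180 CPM (log2 fold change -0.28, adjusted p = 3.8e-05 from edgeR, and -0.13 with total counts). *EIF2AK3*, which encodes PERK, had 27.7 ± 1.26 and 30.8 ± 0.914 CPM, and its log2 fold change of 0.15 (SE 0.07, edgeR adjusted p = 0.081) was 0.30 with total counts (adjusted p = 0.0016). *ERN1*, which encodes IRE1, had 28.04 ± 2.24 and 26.3 ± 2.64 CPM, with a log2 fold change of -0.09 (SE 0.09, edgeR adjusted p = 0.36) that became 0.06 with total counts. Activation of these sensors takes place in the proteins and was not measured. The removal of the *XBP1* segment by IRE1 is not visible in counts per gene.

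Among the other kinases of eIF2, *EIF2AK4* (GCN2, the amino acid sensor) rose from 115 ± 7.51 to 139 ± 4.85 CPM, a log2 fold change of 0.28 (adjusted p = 2.6e-04 from edgeR). *EIF2AK1* (the haem sensor) and *EIF2AK2* (the sensor of double-stranded RNA) did not pass. Their log2 values were -0.04 and -0.11 (adjusted p = 0.43 and 0.27 from edgeR) that were 0.11 and 0.04 with total counts, under which *EIF2AK1* passed as higher (adjusted p = 0.042 from edgeR). *PPP1R15A* (GADD34), the inducible subunit that directs dephosphorylation of eIF2 and is a target of ATF4 and CHOP, rose from 29.96 ± 0.908 to 43.95 ± 1.66 CPM (SD over 3 samples), or by 0.55 on the log2 scale (adjusted p = 1.2e-06 from edgeR). Its constitutive counterpart *PPP1R15B* did not pass (log2 fold change -0.07, adjusted p = 0.25 from edgeR, and 0.08 with total counts). The substrate *EIF2S1*, the alpha subunit of eIF2, and the exchange factor subunits *EIF2B5*, *EIF2B1* and *EIF2B3* fell, with log2 fold changes of -0.49, -0.69, -0.59 and -0.50. The subunits *EIF2B4* and *EIF2B2* did not pass, with -0.14 and 0.14 (adjusted p = 0.056 and 0.083 from edgeR). With total counts *EIF2B4* had 0.01 and *EIF2B2* passed as higher with 0.29 (adjusted p = 0.0013 from edgeR). The stress regulators *NFE2L2* (NRF2) and *CREB3* rose, with 0.63 and 0.61. Of 22 tested genes of sensors and eIF2 control, 7 were higher, 6 lower and 9 did not pass, compared with 11 higher and 6 lower under total counts. Among all genes tested, 35.5% were higher and 35.3% lower, and total counts gave 5525 higher and 3123 lower of 11973. The list's median log2 fold change was -0.06, compared with 0.02 over all genes tested. With total counts these medians were 0.10 and 0.17.

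Other ER chaperones and folding enzymes went both ways, as the members did. Of 29 tested genes, 14 were lower and 9 higher, with a median log2 fold change of -0.06, where 35.3% of all genes were lower and 35.5% higher. Under total counts 12 were lower and 14 higher with a median of 0.09, so the balance of the list depends on the scaling, as it does over all 11973 genes (3123 lower and 5525 higher under total counts). *CALR*, the lectin chaperone calreticulin, fell most, from 1175 to 512 CPM (log2 fold change -1.20, adjusted p = 2.1e-13 from edgeR). *UGGT1*, which marks unfolded glycoproteins for another round of folding, the prolyl isomerase *PPIB* and the disulfide isomerase *PDIA3* had log2 fold changes of -0.67, -0.65 and -0.63. *ERO1B*, an oxidase that recharges disulfide isomerases, rose from 1.71 to 5.70 CPM (log2 fold change 1.72, adjusted p = 2.1e-06 from edgeR). The prolyl isomerases *FKBP14* and *FKBP7* and the sulfhydryl oxidase *QSOX1* rose as well, with 1.02, 0.89 and 1.00. These named directions were the same under total counts. *ERP44*, a thiol protein of the early secretory pathway that passed as lower (log2 fold change -0.14, adjusted p = 0.026 from edgeR), had 0.01 with total counts.

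ER-associated degradation, the pathway of *HERPUD1* and *DNAJB9*, extracts misfolded proteins to the cytosol for the proteasome. Of its 25 other genes, all tested, 15 were higher, 7 lower and 3 did not pass, compared with 35.5% of all genes higher and 35.3% lower. The median log2 fold change was 0.24, compared with 0.02 over all genes tested. With total counts 16 were higher and 6 lower, with a median of 0.39. All 11973 genes then had 5525 higher and 3123 lower, with a median of 0.17. *ERLEC1*, *EDEM1* and *SELENOS* rose, with log2 fold changes of 0.71, 0.59 and 0.45. *ERLEC1* and *EDEM1* recognise glycoproteins to be discarded, and *SELENOS* is a membrane selenoprotein of the complex. *UFD1*, *UBE2G2* and *VCP* fell, with -0.87, -0.60 and -0.47, the last being the ATPase that pulls proteins out of the membrane with UFD1. *DERL3*, a membrane channel component, also fell, from 7.45 to 4.24 CPM (log2 fold change -0.82, adjusted p = 9.3e-04 from edgeR).

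The entry machinery of the ER, namely the translocon, signal recognition particle, signal peptidase and oligosaccharyltransferase, had 17 of 29 tested genes lower, 6 higher and 6 that did not pass, with a median log2 fold change of -0.16, where 35.3% of all genes were lower and 35.5% higher. Under total counts 8 were lower and 8 higher, with a median of -0.01. Over all 11973 genes total counts gave 3123 lower and 5525 higher, with a median of 0.17. The catalytic subunit *STT3A*, the channel subunit *SEC61A1* and the signal recognition particle proteins *SRP9* and *SRP14* fell, with log2 fold changes of -0.59, -0.53, -0.51 and -0.47, and of -0.43, -0.38, -0.36 and -0.32 with total counts. The signal peptidase subunits *SEC11C* and *SEC11A* rose, with 0.52 and 0.34, as did *SEC62* with 0.39 and *SSR1* with 0.21.

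**Figure D4:**
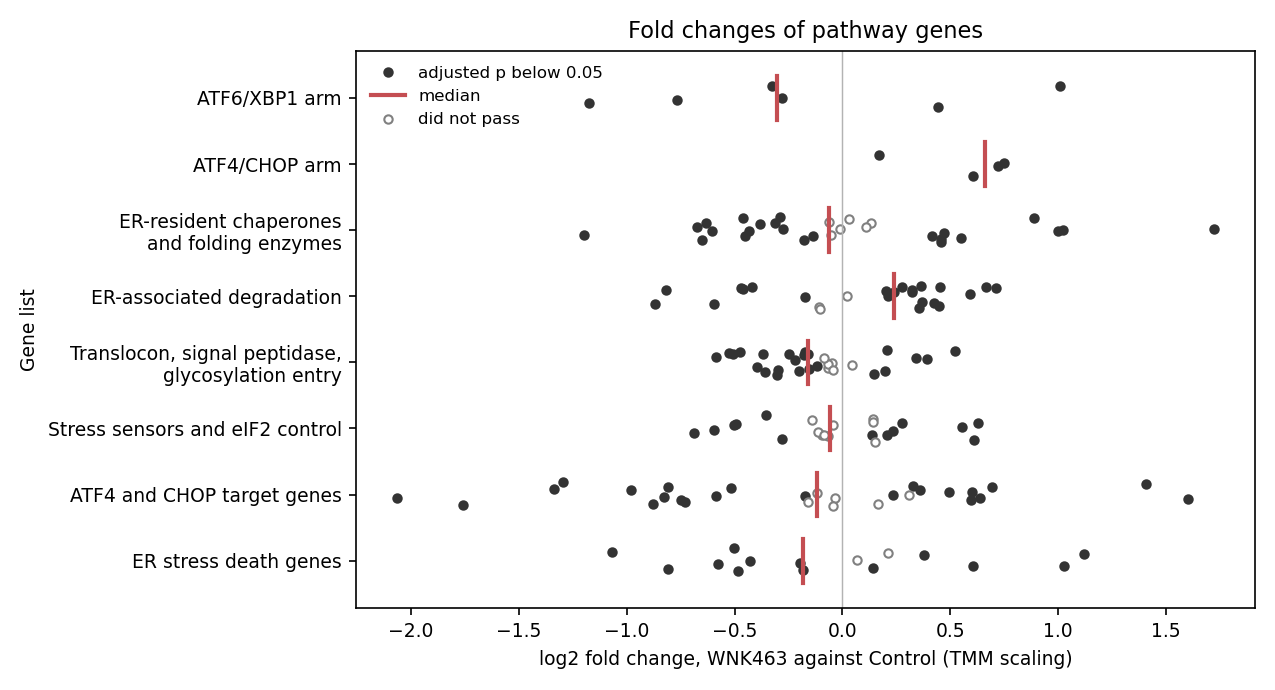
Log2 fold change of each tested gene in the members' arms and in 6 other lists of the pathway, with filled points for an adjusted p below 0.05, open points for genes that did not pass, and a red bar at each median. The ATF4/CHOP arm lies wholly above 0, ER-associated degradation has its median at 0.24, and the other 5 pathway lists spread to both sides with medians between -0.18 and -0.06.

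Known targets of ATF4 and CHOP went both ways. Of 34 listed genes 29 were tested, of which 10 were higher, 13 lower and 6 did not pass, and the median log2 fold change was -0.12 (0.04 with total counts). Over all genes 35.5% were higher and 35.3% lower, with a median of 0.02 (0.17 with total counts). The cystine carrier *SLC7A11* rose from 5.62 to 17.05 CPM (3.04-fold, adjusted p = 1.5e-09 from edgeR), and *KLHL24*, the glutamine carrier *SLC38A2* and the mitochondrial folate enzyme *MTHFD2* rose as well, with 1.41, 0.69 and 0.64. The serine synthesis enzymes *PHGDH* and *PSAT1*, the folate enzyme *ALDH1L2* and the arginine carrier *SLC7A1* fell, with -2.06, -1.33, -1.76 and -1.30. *STC2*, *NUPR1*, *GDF15*, *FGF21* and *CLGN* had too few counts to be tested. The targets *ASNS* and *CHAC1*, singled out after their values were seen as genes often used to read ATF4 activity, did not pass. They had log2 changes of 0.17 (SE 0.09) and -0.03 (SE 0.34), with adjusted p of 0.094 and 0.93 from edgeR. With total counts they had 0.32 (adjusted p = 0.0043) and 0.12 (adjusted p = 0.76). *CHAC1* had 21 reads or fewer in each sample, so its value is uncertain. What size of change could be detected at this depth was not computed.

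Genes that link ER stress to cell death also went both ways, with 5 of 15 tested genes higher, 8 lower and 2 that did not pass, and a median log2 fold change of -0.18. The share over all genes was 35.5% higher and 35.3% lower. With total counts 7 were higher and 6 lower, so this balance too depends on the scaling. All 11973 genes then had 5525 higher and 3123 lower, with a median of 0.17 against -0.03 for this list. Without Control replicate 2 or Control replicate 3, 3 in place of 5 were higher. *BCL2L11*, which encodes the pro-apoptotic protein Bim and is a target of CHOP, rose from 73.8 to 160 CPM (log2 fold change 1.12, adjusted p = 3.0e-12 from edgeR). *BBC3*, which encodes Puma, had 5.26 and 8.02 CPM and a log2 fold change of 0.61 (adjusted p = 0.0015 from edgeR). *TXNIP* and the kinase *MAP3K5* rose, with 1.03 and 0.38 (adjusted p = 1.1e-12 and 0.022 from edgeR). For *MAP3K5* the groups were separate by a narrow margin, with 9.495 CPM in Control replicate 1 and 9.717 CPM in WNK463 replicate 1. The inflammatory caspase *CASP4*, the adaptor *TRAF2*, and the BCL2 family members *BID* and *BAX* fell, with -1.07, -0.81, -0.58 and -0.50.

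The promoter search above was also read for the genes of the lists that had a window, and 11 tested genes held ERSE or ERSE-II. Over all 35116 windows, of which a gene may have several, 46 held either. The 11 genes were 4 members and 7 of the 28 chaperones or folding enzymes with a window. Neither was found in the ATF4/CHOP arm, nor in the genes with a window of the other lists, which were 20 of 25 for ER-associated degradation, 25 of 29 for the entry machinery, 22 of 23 for the sensors, 28 of 34 for the ATF4 and CHOP targets and 14 of 16 for the death genes. Of these 11 genes, 6 were lower (*HSPA5*, *XBP1*, *SDF2L1*, *HSP90B1*, *CALR* and *PDIA6*), 2 higher (*HERPUD1* and *ERO1B*) and 3 did not pass (*HYOU1*, *CANX* and *CRELD2*). Among all genes tested, 70.8% passed, 35.3% as lower and 35.5% as higher. *HSP90B1*, the ER member of the HSP90 family, had a log2 fold change of -0.31 and *PDIA6* one of -0.61, while *HYOU1*, *CANX* and *CRELD2* lay between -0.06 and -0.01. With total counts these 3 genes had log2 fold changes of 0.14, 0.09 and 0.10, and *HYOU1* and *CANX* passed (adjusted p = 0.0068 and 0.040 from edgeR). *DNAJB9*, the member that rose most, held none of the motifs searched in its window, and *HERPUD1* was the sole member to hold both ERSE-II and CARE.

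The genes whose log2 CPM followed *HSPA5* most closely over the 6 samples were *LGALS9C*, *MID1IP1* and *UNC5A*, with Pearson r between 0.998 and 0.999. Those most like *DDIT3* were *MUC1*, *MRRF* and *CKB*, with r of 0.999 or above. With samples in 2 groups such values mainly follow the group difference and the shared libraries, and 3130 other genes had an r above 0.9 with *HSPA5* and 2391 with *DDIT3*.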

How the data were processed

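The authors deposited estimated counts per gene as whole numbers, without normalization, and TPM values for 3 Control and 3 WNK463 samples. Per the labels, the submitters' processing notes name fastp, Bowtie2, HISAT2, StringTie, RSEM, DESeq2 and edgeR on GRCh38, without versions or roles, and mRNA was captured with beads. The table also holds the authors' group means, fold changes and p-values, which were not used. Counts were tested with edgeR 4.0.16 in R 4.3.3 (default filter on low counts, TMM, quasi-likelihood test, Benjamini-Hochberg over 11973 genes). Each standard error was derived from the fitted change and its F statistic (size over the root of F). CPM use TMM library sizes. Replicates differed by more than sampling noise (chi-square per degree of freedom 2.64 to 7.13). Alternatives were DESeq2 1.42.0, limma 3.58.1 on log2(TPM + 1) and log2(TPM + 0.1), total counts, other filters, a replicate block and each sample left out. The procedure was tested on simulated data in which few genes changed, as many up as down. That test does not address the choice of scaling, nor the error rate where most genes pass, as 70.8% of those tested did here. The members and lists were chosen with earlier results of these data known. Other named genes are the sensors, the eIF2 kinases and phosphatase subunits, up to 4 per list and direction by fold change among genes that passed without overlap of CPM, and the 3 most correlated with *HSPA5* and *DDIT3*. *ASNS*, *CHAC1*, *ERP44*, *ATF6B*, *EIF2B2*, *EIF2B4*, genes overlapping members and genes with ERSE were named after their values were seen. 1 gene that the rule for named genes selects is not reported here.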

Additional observations from a re-analysis of the deposited data

How the results depend on the processing

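Over the 10 members and 14 alternatives, 138 of 140 combinations kept the direction and the adjusted p below 0.05, and the other 2 kept the direction only, namely *XBP1* (-0.13, adjusted p = 0.054) and *ATF3* (0.73, adjusted p = 0.072) with limma on log2(TPM + 1) without a filter. No member reversed. With each sample left out, the ATF6/XBP1 arm kept 2 higher and 4 lower genes and the ATF4/CHOP arm 4 higher. The causes of the shifts below were not tested, apart from the stricter rule calling fewer genes by construction. Requiring a log2 fold change of at least 1 in size left 1152 higher and 665 lower genes of all tested, 1 higher and 1 lower in the ATF6/XBP1 arm, 0 in the ATF4/CHOP arm, 2 and 1 among chaperones, 0 and 0 in ER-associated degradation, in the entry machinery and among sensors, 2 and 4 among ATF4 targets and 2 and 1 among death genes. Total counts gave 14 higher chaperones, 8 lower entry genes and 11 higher sensors, and 5525 higher and 3123 lower genes of all tested. With limma, lower genes of all tested were 2643 (pseudocount 1), 2634 (0.1) and 2635 (no filter), lower chaperones 8 and lower entry genes 7 in each, and higher sensors 11 with either pseudocount and 10 without a filter. Without Control replicate 2 or Control replicate 3, 3 death genes were higher in place of 5, and the range over the samples left out was 3 to 5. The replicate numbers did not pair the samples (correlations of their deviations 0.02, -0.01 and -0.05), and with the replicate block 4223 genes were higher and 4175 lower. *ATF3*, at 39 to 91 reads a sample, is limited by depth.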
